A study of Mus musculus with 8 samples.

Results

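The pancreata of NOD.B10 mice were profiled as 1 RNA pool, and the transcripts that this pool held are described here from its own signal, with no comparison to NOD mice. The pool served as the Cy3 (green) reference on all 8 two-color arrays of the series. A probe was kept when its green spot was well above background on all 8 arrays, a flag that the array software set for each spot. Of 41174 probes, 21536 were kept, and 19870 of these carried a gene symbol. The kept probes stood for 13944 of the 21597 gene symbols on the array.

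The study compared the pancreas of individual female NOD mice with this pool at 12 weeks of age, around the time when islets of NOD mice are being destroyed. NOD.B10 is the NOD.B10Sn-H2b/J strain, which has the NOD background with the H2b haplotype of the major histocompatibility complex (MHC) and is not prone to diabetes. The pool was made from 8 female mice of the same age, no agent was given to either strain, and the mice were kept free of pathogens. Since the animals were pooled before labeling, the 8 arrays were technical replicates of 1 sample, and no value below carries the spread between mice. All SDs are over the 8 arrays, and the levels are log2 of the green processed signal, a background-subtracted and dye-normalized brightness. The dye normalization used the red signal of the NOD mouse on the same array. Arrays 1 to 4 were on slide 1 and arrays 5 to 8 on slide 2.

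Most of the pancreas consists of acinar cells, which make digestive enzymes and store them as inactive precursors in zymogen granules. Ducts carry the enzymes to the gut, and the islets of Langerhans, scattered in the exocrine tissue, release insulin, glucagon, somatostatin and pancreatic polypeptide into blood. Whole-tissue RNA also holds transcripts of fibroblasts, vessels, nerves, fat, lymph nodes and blood, and in such bulk RNA fewer cells of a type and less RNA per cell cannot be told apart.

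Before the results, the arrays themselves were compared. Per array, 57.6% to 60.7% of the 43379 spots were well above background, and the kept probes correlated between any 2 arrays with a Pearson r of 0.982 to 0.996 and a Spearman rho of 0.970 to 0.994. The SD of a kept probe over the arrays had a median of 0.21 and a 95th percentile of 0.47 on the log2 scale. Arrays 7 and 8 stood apart for a set of probes that is described below. Each probe was placed by the files on the mm8 genome, and a probe position below is in that build. For each gene the kept probe with the highest mean stood for the gene, and genes were ranked by that signal. Brightness depends on the probe as well as on the transcript, so the order below is an order of signals and not of transcript numbers.

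No green spot was saturated on any of the 8 arrays. The brightest spot of an array reached 16.7% to 23.1% of the scanner's saturation value, so the top of the order was not cut off. Kept genes spanned 13.79 log2 units, from 5.20 to 18.98, with a median of 8.75. Probes with a symbol that missed the rule by 1 array, that is 7 of 8 arrays, numbered 864 and had a median level of 5.62. Those at 0 arrays numbered 10123, with a median of 3.50.

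Genes of the exocrine pancreas made up much of the top of the order. Ctrb1 was the highest of the 13944 genes, with a mean log2 signal of 18.98 ± 0.14 (SD, n = 8). It encodes chymotrypsinogen B1, and its probe lies at chr8:114575271-114575330. Over the 8 arrays the level of Ctrb1 ranged from 18.80 to 19.20 with a median of 19.02. Lars2 and Pigt, which are not exocrine genes and are described with the probes further on, held ranks 2 and 4. Among the exocrine genes, the chymotrypsin-like protease gene Ctrl came next at 18.86 ± 0.11, then the trypsinogen gene Prss3 at 18.44 ± 0.13, and Ctrc, which encodes chymotrypsin C, at 18.43 ± 0.06. The bile salt-stimulated lipase gene Cel stood at 18.43 ± 0.12. Try5, another trypsinogen gene, had 18.33 ± 0.11, and Zg16, which encodes a zymogen granule membrane protein, had 18.29 ± 0.13.

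The order of neighbours within this top group was mostly not resolved by the arrays. Of the 24 pairs of neighbours among the 25 highest genes, 1 pair, Pigt and Prss3, was further apart than the larger SD of the pair. Ctrb1 and the gene below it, Lars2, differed by 0.03, with a larger SD of 0.14. Genes at the ends of the 25 were apart, with Ctrb1 at 18.98 ± 0.14 and Reg1 at 17.75 ± 0.17.

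Proteases, lipases and amylases were all found at this level. Among proteases, Prss2 (trypsinogen) had a mean log2 signal of 17.85 ± 0.09, and the carboxypeptidase genes Cpa1 and Cpb1 had 17.76 ± 0.09 and 17.63 ± 0.20. The elastase genes, listed on the array as Ela3, Ela1 and Ela2a, had 18.08 ± 0.19, 17.97 ± 0.18 and 17.89 ± 0.25. For fat digestion, the colipase gene Clps stood at 18.10 ± 0.15, the lipase-related gene Pnliprp1 at 17.98 ± 0.16 and the lipase gene Pnlip at 17.43 ± 0.16. The phospholipase gene Pla2g1b had 17.08 ± 0.08. For starch, Amy1 had 17.86 ± 0.22 and Amy2-2, now named Amy2a5, had 17.69 ± 0.18. Amylase, trypsinogen and kallikrein genes have near-identical copies, and a 60-base probe may not separate them, so these levels are uncertain for the single gene.

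All 23 acinar enzyme genes on the array were kept, where 64.6% of all gene symbols were, and 22 of them were among the 100 highest genes. The remaining gene was Pnliprp2, a lipase-related gene just below the 100 highest, with 16.30 ± 0.16. The list of other acinar secretory genes had 17 of 17 kept, with 11 among the 100 highest. Its members include Sycn (syncollin, a granule protein) at 18.12 ± 0.23, Reg1 and Reg2 (regenerating proteins) at 17.75 ± 0.17 and 17.68 ± 0.39, and Gp2, the main glycoprotein of the granule membrane, at 16.94 ± 0.20. Reg3g was the lowest of this list at 10.42 ± 0.22.

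Genes that set the acinar fate were lower and more spread. All 12 were kept, with a median percentile of 92.4 among kept genes. Rbpjl, listed as Rbpsuhl, encodes the acinar subunit of the PTF1 transcription complex and had a mean log2 signal of 16.47 ± 0.10 at rank 85. Ptf1a, the other cell-specific subunit, had 12.55 ± 0.14 at rank 1092. Bhlha15 (Mist1), listed as Bhlhb8, had 15.16 ± 0.19, and Cckar, the receptor through which cholecystokinin triggers enzyme release, had 14.46 ± 0.23. Nr5a2, a nuclear receptor of acinar cells, stood at 12.04 ± 0.11 and Gata4 was the lowest at 7.41 ± 0.09.

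**Figure D1:**
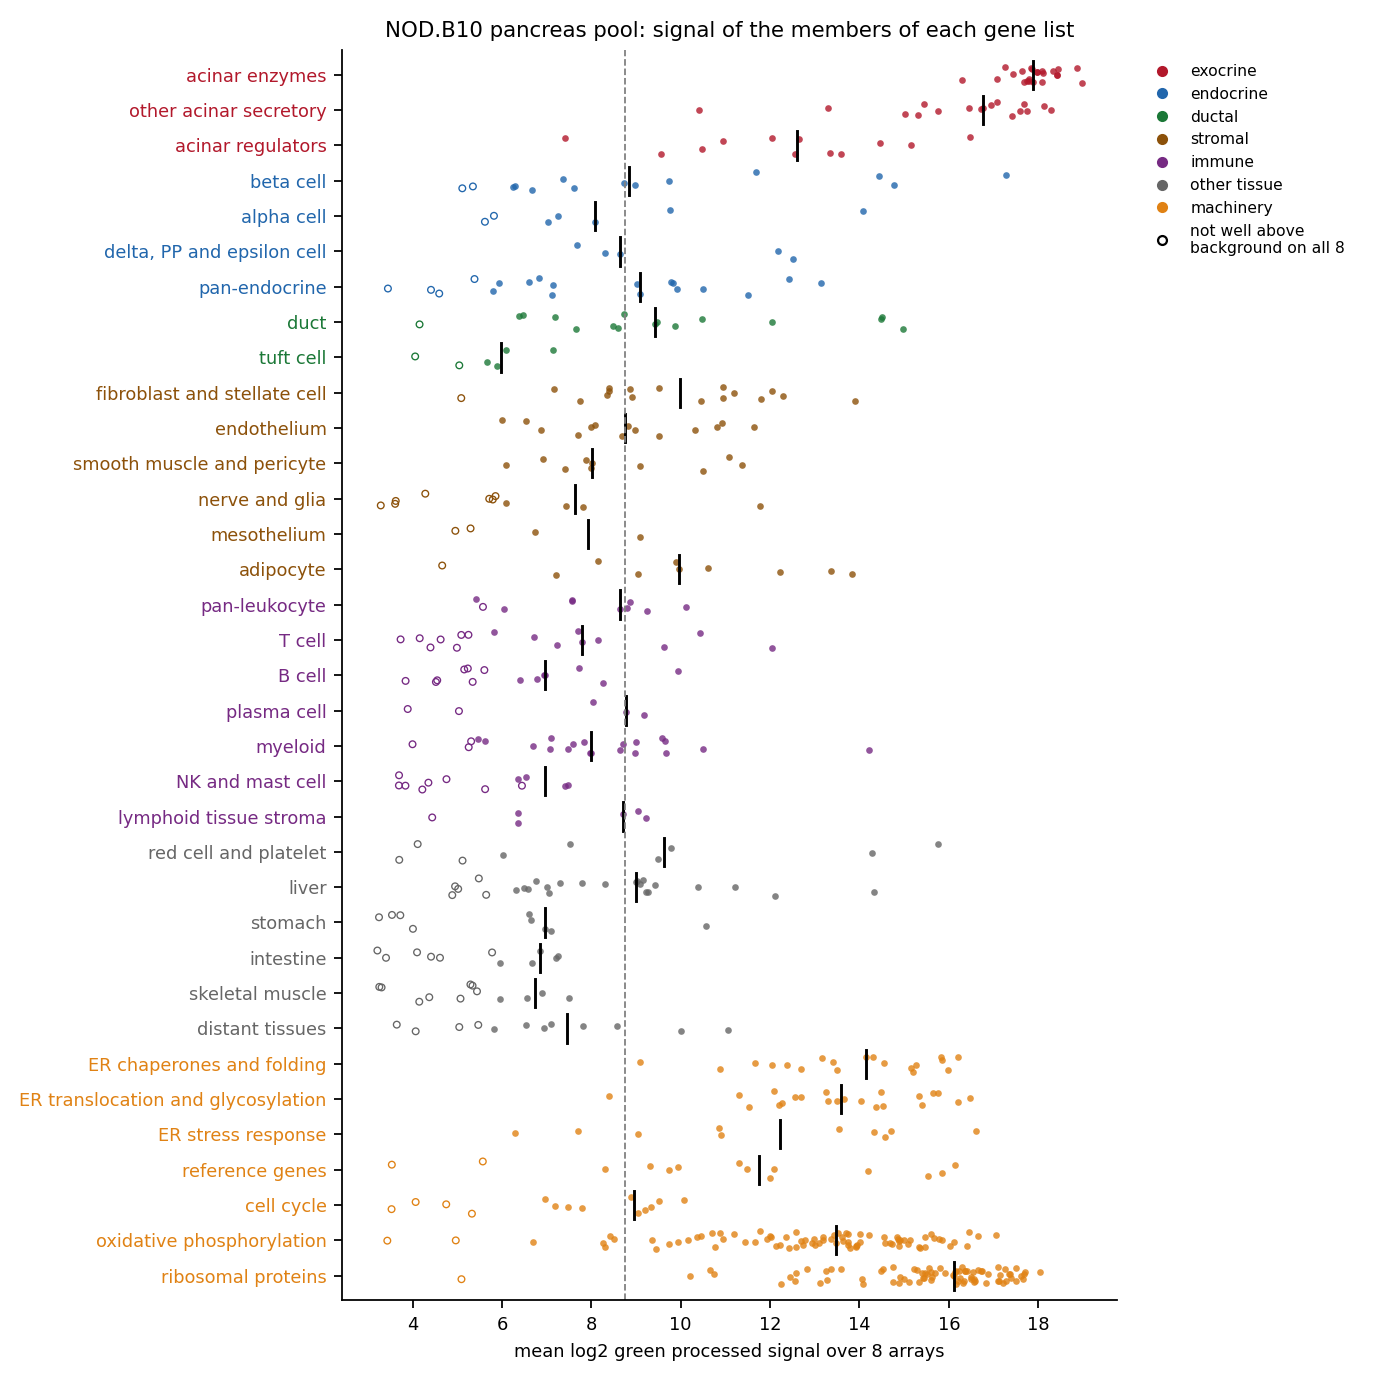
Mean log2 green processed signal over the 8 arrays (x axis) for the members of 35 gene lists (y axis, colored by class). Filled points were well above background on all 8 arrays, open points were not, black bars are medians of the filled points and the dashed line is the median of all kept genes (8.75). Acinar enzymes, ribosomal proteins and the ER lists sit to the right, and most immune and other-tissue lists lie at or left of the dashed line.

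The 100 highest genes held 34 exocrine genes and 34 ribosomal protein genes. The rest of the 100 were 4 genes of oxidative phosphorylation, 1 endocrine gene (Ins2), 1 gene each of the lists for endoplasmic reticulum (ER) translocation and ER stress (Sec61b and Asns), and 25 genes on none of the lists. Some of those 25 were of the same kinds under other names, such as Arbp (Rplp0) and Fau for the ribosome and Klk1b4 and Klk1b3 for tissue kallikreins. Linear signal was also summed over all kept genes. The 100 highest gave 37.7% ± 1.91 (SD, n = 8 arrays) of it, the exocrine genes 18.5% ± 1.10, the ribosomal protein genes 13.7% ± 0.656, the endocrine genes 0.583% ± 0.0195 and the immune genes 0.0943% ± 0.00879.

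**Figure D2:**
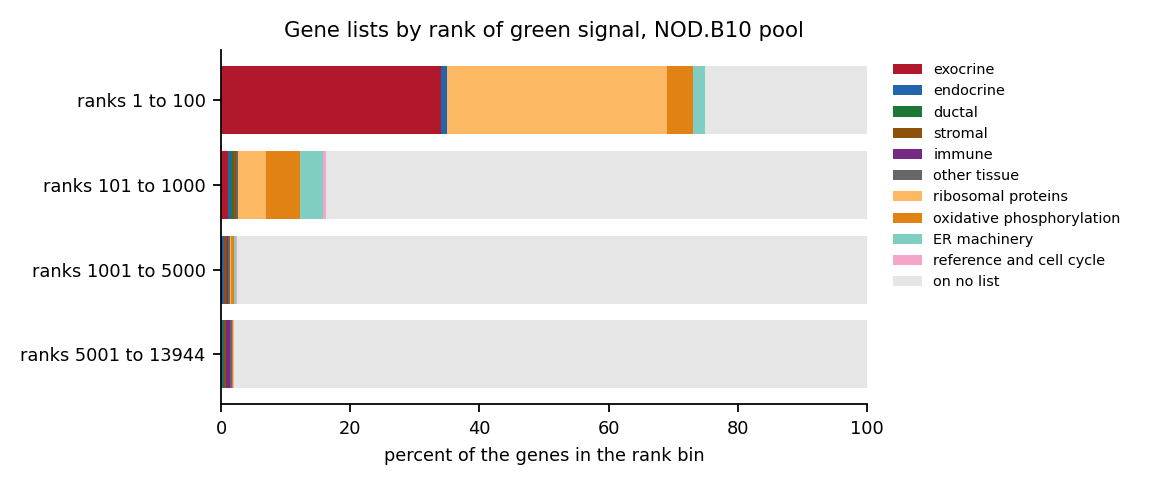
Genes in 4 bins of signal rank (y axis), with the percent of each bin (x axis) that belongs to each class or list as stacked bars. Exocrine and ribosomal protein genes fill 34% each of ranks 1 to 100, and genes on no list fill most of the other bins.

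Most genes of the secretory route were high. The 19 genes for ER chaperones and folding were all kept, with a median percentile of 97.2, and so were the 22 genes for ER translocation and glycosylation, with 96.0. Hspa5 (BiP), the main ER chaperone, had a lowest level of 15.63, a median of 15.77 and a highest of 16.30, for a mean of 15.85 ± 0.24 at rank 130, and its groups of arrays overlapped between the slides. The highest of its list was Ppib, a folding enzyme of the ER, at 16.21 ± 0.15, and Creld2 stood at 15.98 ± 0.16. Sec61b, a subunit of the channel through which new proteins enter the ER, had 16.48 ± 0.15 and Ssr4, of the complex beside that channel, had 16.20 ± 0.14. The lowest members of these lists were Ero1l at 9.10 and Stt3a at 8.40, the latter below the median kept gene (8.75).

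Among the 10 ER stress genes, all kept, the levels ran from 16.60 to 6.29. Asns (asparagine synthetase) had 16.60 ± 0.22 at rank 74. Derl3 and Herpud1, both parts of ER-associated degradation, had 14.72 ± 0.21 and 14.57 ± 0.22. The stress-induced factors Ddit3 (CHOP) and Atf3 had 7.70 ± 0.34 and 6.29 ± 0.20. Xbp1, which drives expansion of the ER in secretory cells, stood at 13.58 ± 0.18.

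Stretches before the start sites of acinar genes are shown because their letters are a feature that signal did not choose, and one that some of these genes hold and others lack. Promoter windows came from RefSeq on GRCm38.p6, a later build than that of the probes, so the 2 sets of positions cannot be compared. Of 40 kept acinar enzyme and other secretory genes, 32 had a window. The TATA box TATAAA on the gene's own strand, starting no more than 40 and ending at least 15 bases before the start site, was present in 5 of 19 acinar enzyme genes with a window (26.3%) and in 5 of 13 other secretory genes (38.5%). All promoters of the table held it there in 2.41%, kept genes in 2.24% and the 60 ribosomal protein genes with a window in 1.67%. Each line below gives the 60 bases before the start of a gene, 5′ to 3′ on its strand, with TATAAA in capitals.
Prss3, minus strand of chr6:41377614-41377673: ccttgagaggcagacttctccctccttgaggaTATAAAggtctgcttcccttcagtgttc
Cela1, minus strand of chr15:100687921-100687980: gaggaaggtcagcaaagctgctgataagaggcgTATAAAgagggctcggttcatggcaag
Reg1, plus strand of chr6:78425923-78425982: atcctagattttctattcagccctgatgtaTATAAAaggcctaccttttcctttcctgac
Amy2a5, minus strand of chr3:113258700-113258759: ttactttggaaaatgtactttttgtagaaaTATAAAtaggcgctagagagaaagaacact
Pnlip, plus strand of chr19:58670305-58670364: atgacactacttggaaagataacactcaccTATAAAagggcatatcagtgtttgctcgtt
Gp2, minus strand of chr7:119459273-119459332: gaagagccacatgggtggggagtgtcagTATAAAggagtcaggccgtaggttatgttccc
Ctrb1, minus strand of chr8:111691011-111691070: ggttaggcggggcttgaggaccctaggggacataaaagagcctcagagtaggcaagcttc
Cel, minus strand of chr2:28563404-28563463: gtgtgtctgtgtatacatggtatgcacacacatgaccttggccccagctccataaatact
In the first 6 of these genes, TATAAA began 27 to 32 bases before the start. The last pair, Ctrb1 and Cel, did not hold these exact letters in the stretch, although Ctrb1 was the brightest gene of the pool. Ctrb1 held cataaa, which differs in the first letter, beginning within the same 27 to 32 bases before the start. Only exact matches were counted, so their lack does not show that a gene has no TATA box. A second motif, the E-box CACCTG on either strand within 250 bases before the start, was present in 11 of 19 acinar enzyme genes (57.9%) and 8 of 13 other secretory genes (61.5%), against 19.4% of all promoters and 8.33% of ribosomal protein genes. The letters TTTCCC on either strand were present in 31.6% of acinar enzyme genes and 30.8% of other secretory genes. This compares with 24.4% of all promoters, 26.3% of kept genes and 38.3% of ribosomal protein genes. These are matches of letters and not measured sites, overlap between matches of different motifs was not counted, and the genes of a family share ancestry.

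The insulin genes were the brightest endocrine genes, and the other hormones ranged widely. Ins2, an insulin gene, had a lowest level of 17.09, a median of 17.27 and a highest of 17.42, for a mean of 17.27 ± 0.10 at rank 42. Its 2 probes, at chr7:142488140-142488199 and chr7:142488160-142488219, gave 17.15 ± 0.11 and 17.27 ± 0.10. Ins1, the other insulin gene of mice, had 14.78 ± 0.16 at rank 271, and on no array did it reach the level of Ins2. Gcg (glucagon) had 14.08 ± 0.15 at rank 404 on 1 probe, while its second probe had 5.30 ± 0.20 and was well above background on 6 arrays. Sst (somatostatin) had 12.52 ± 0.24 and Pyy (peptide YY) 12.18 ± 0.14. Lower still were Iapp (amylin, co-secreted with insulin) at 8.73 ± 0.12, Ghrl (ghrelin) at 8.63 ± 0.50 and Ppy (pancreatic polypeptide) at 7.68 ± 0.23.

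Neighbours in this order of hormones were further apart than the larger SD of each pair, except Iapp and Ghrl. The levels of each hormone overlapped between the slides.

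Genes of granules lay among the hormones in level, and several genes of islet identity were near or below the median gene. Of the endocrine class, 37 of 45 genes on the array were kept (82.2%, where 64.6% of all symbols were), with a median percentile of 53.6 ± 1.31. Chga (chromogranin A, of secretory granules) had 13.14 ± 0.13, Pcsk2 (a prohormone convertase) 12.43 ± 0.18 and Chgb 11.52 ± 0.17. Ero1b, listed as Ero1lb, is an oxidase for disulfide bonds that serves insulin folding but is not limited to beta cells, and it had 14.43 ± 0.15, above Gcg. Among beta cell factors, Nkx6-1 was at 8.98 ± 0.18 and Pdx1 at 7.36 ± 0.12. The glucose transporter gene Slc2a2 had 7.61 ± 0.28 and the zinc transporter gene Slc30a8 6.30 ± 0.09.

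The remaining 8 of the 45 endocrine genes had no kept probe. Mafa, a factor of mature beta cells, was well above background on 7 arrays with a level of 5.35 ± 0.27, and Kcnj11, of the ATP-sensitive potassium channel, on 6 with 5.39 ± 0.25. Insm1 and Rfx6 were above on 1 array each. Neurod1, a factor of all islet cells, was above on 0 arrays at 3.45 ± 0.48 on its only probe. A low probe does not show that the transcript was missing, as the reference genes described below show.

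**Figure D3:**
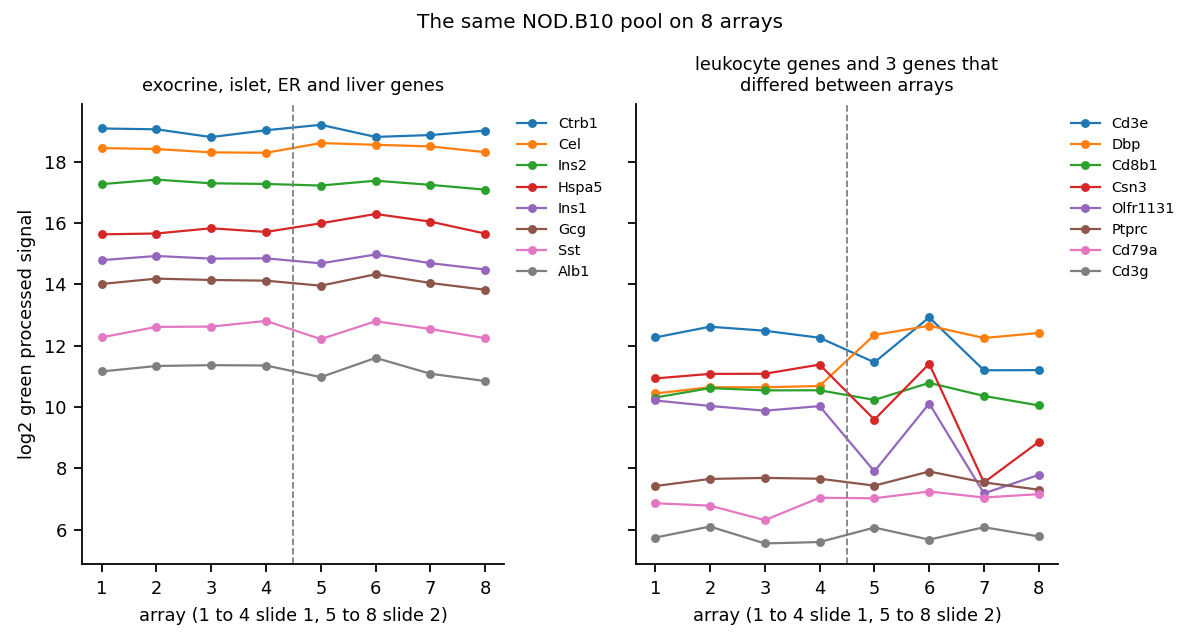
Log2 green processed signal (y axis) of 16 genes on each of the 8 arrays (x axis), with a dashed line between slide 1 and slide 2. The exocrine, islet, ER and liver genes on the left lie nearly flat, while Cd3e, Csn3 and Olfr1131 on the right are lower on arrays 5, 7 and 8 and Dbp is higher on all arrays of slide 2.

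Ductal genes covered a wide range, and 19 of 22 were kept (86.4%, where 64.6% of all symbols were), with a median percentile of 47.9 ± 1.74. Of 16 duct genes, 15 were kept, with a median percentile of 60.8. The keratin genes Krt18 and Krt8, which acinar cells also express, had mean log2 signals of 14.99 ± 0.19 and 14.48 ± 0.10, and Spp1 (osteopontin) had 14.51 ± 0.18. Genes closer to the duct itself were lower, with Krt19 at 10.49 ± 0.17, Krt7 at 9.88 ± 0.21, Sox9 (a duct transcription factor) at 9.46 ± 0.27 and the chloride channel gene Cftr at 6.47 ± 0.09. Slc4a4, a bicarbonate transporter, had 3 probes and was well above background on 0 arrays with each. Tuft cell genes were low, with 4 of 6 kept and a median percentile of 4.92. Trpm5, a cation channel of tuft and beta cells, had 5.89 ± 0.17.

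Of 66 stromal genes, 55 were kept (83.3%, where 64.6% of all symbols were), with a median percentile of 53.6 ± 0.820, and the lists of this class differed in level. The 17 fibroblast and stellate cell genes had 16 kept and a median percentile of 68.3, led by Dcn (decorin) at 13.89 ± 0.11 and the collagen genes Col3a1 and Col1a2 at 12.29 ± 0.22 and 12.05 ± 0.19. All 14 endothelial genes were kept, with a median percentile of 50.3. Flt1, a receptor for vascular endothelial growth factor, was the highest of them at 11.65 ± 0.24, and Pecam1 (CD31) had 6.87 ± 0.12. All 10 smooth muscle and pericyte genes were kept, with Myl9 at 11.37 ± 0.25 and Acta2 (smooth muscle actin) at 10.50 ± 0.18, but 6 of the 10 were in the lower part of the order and the median percentile was 37.9. Des (desmin) was the lowest at 6.09 ± 0.09. These are levels of the brightest probe of a gene. The lowest probes of Col1a2, Flt1, Acta2 and Pecam1 had 3.53, 3.47, 3.35 and 3.29 and were above background on 0 arrays. In the stromal class, 12 of 28 genes with at least 2 probes had probes more than 5 units apart.

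Fat and nerve differed. Of 10 adipocyte genes, 9 were kept (90%, where 64.6% of all symbols were), at a median percentile of 68.4. Lpl (lipoprotein lipase) had 13.84 ± 0.21, Fabp4 (a fatty acid carrier) 13.37 ± 0.14 and Cfd (adipsin) 12.23 ± 0.21, while Adipoq (adiponectin) had 9.05 ± 0.23 and Lep (leptin) was well above background on 0 arrays. Of 11 nerve and glia genes, 4 were kept (36.4%). Mbp (myelin basic protein) was the highest at 11.77 ± 0.18 on its brightest probe, while the lowest of its 3 probes had 5.39 and was above background on 7 arrays. The Schwann cell genes Sox10 and S100b had 7.44 ± 0.26 and 7.81 ± 0.27, and Th, for catecholamine synthesis, was above on 0 arrays.

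Immune genes were kept about as often as any gene. Of 85 on the array, 56 were kept (65.9%, where 64.6% of all symbols were), and their median percentile was 36.3 ± 1.17. For scale, the genes of sensory receptors (olfactory, vomeronasal and taste), which are used mainly in sensory tissue, were counted on the same arrays, a group chosen after values were seen. Of 1043 such genes, 249 were kept (23.9%), with a median percentile of 30.2 ± 3.40, a median level of 7.55 and an upper decile of 9.90. The median percentile of kept immune genes was therefore near that of kept sensory receptor genes, while a larger share of the immune genes was kept, and no test was made of either difference.

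Among the leukocyte lineages, the myeloid list had 19 of 22 genes kept (86.4%, where 64.6% of all symbols were). Lyz2 (lysozyme 2), listed as Lyzs, had a mean log2 signal of 14.22 ± 0.20 at rank 371, while its second probe had 6.87 ± 0.19. Fcer1g, a chain of Fc receptors, had 10.50 ± 0.52, and the complement genes C1qc, C1qa and C1qb of macrophages had 9.66 ± 0.26, 9.64 ± 0.23 and 9.59 ± 0.69. Adgre1 (F4/80), listed as Emr1, had 9.01 ± 0.22. Itgam (CD11b) was well above background on 1 array, and Itgax (CD11c) was kept at 5.46 ± 0.28. Of the 10 pan-leukocyte genes, 9 were kept at a median percentile of 48.6, led by Srgn (serglycin, a granule proteoglycan) at 10.11 ± 0.23. Ptprc (CD45), found on all leukocytes, had 4 probes, of which 1 was kept at 7.58 ± 0.19 and 3 were above on 0 arrays.

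Of 14 B cell genes, 7 were kept (50%, where 64.6% of all symbols were), at a median percentile of 20.2. Ighm (the IgM heavy chain), listed as Igh-6, had 9.94 ± 0.19, and the receptor genes Cd79b, Cd79a and Ms4a1 (CD20) had 7.74 ± 0.27, 6.94 ± 0.29 and 6.96 ± 0.16. Of 5 plasma cell genes, 3 were kept (60%) at a median percentile of 50.6. They were Mzb1, listed as 2010001M09Rik, at 9.18 ± 0.23, Sdc1 (CD138) at 8.78 ± 0.21 and Jchain, listed as Igj, which joins secreted immunoglobulins, at 8.04 ± 0.31. Of the 6 lymphoid tissue genes, 5 were kept (83.3%), among them the chemokine gene Ccl19 at 9.04 ± 0.25. Of 12 genes for NK and mast cells, 4 were kept (33.3%), and the cytotoxic genes Gzmb, Gzma and Prf1 were above background on 0 arrays.

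Of 16 T cell genes, 9 were kept, where 64.6% of all symbols were, and the list was led by a gene whose probes differed widely. Cd3e, a chain of the T cell receptor complex, had a mean log2 signal of 12.05 ± 0.67 at rank 1480 on its probe at chr9:44750166-44750225. Its other probe, at chr9:44754896-44754955, had 3.45 ± 0.38 and was above background on 0 arrays. The partner chains were low on their single probes, Cd3g at 5.83 ± 0.23 and Cd3d, not kept, at 4.99 ± 0.51. Cd247, the zeta chain, had 3 probes and none was kept.

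The second gene of the list had the same feature. Cd8b1, a chain of CD8, had 10.43 ± 0.24 on a probe that the files placed at chr5:115404420-115404479 and 6.23 ± 0.18 on a probe at chr6:71266583-71266641. Cd8a and Cd4, the lineage receptors, had 7.23 ± 0.22 and 7.79 ± 0.26. Lck was above on 2 arrays, Ccr7 and the best probe of Il7r on 1, and Cd28 on 0. The rank of Cd3e was that of 1 probe.

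Cd3e was also among the probes that separated arrays. It had 12.27, 12.62, 12.49 and 12.26 on arrays 1 to 4, and 11.46, 12.93, 11.20 and 11.21 on arrays 5 to 8. The levels of slide 2 lay both above and below those of slide 1, and arrays 7 and 8 were the lowest. In all, 400 kept probes (1.86%) were lower on both of these arrays than on each of arrays 1 to 4 and 6 by at least 0.8 log2 units, and 5 were higher by as much. Of the 329 with a symbol, 12.5% were sensory receptor probes, compared with 1.27% of all kept probes with a symbol. Their mean level was 9.02 to 9.35 on arrays 1 to 4 and 6, 8.90 on array 5, 7.58 on array 7 and 7.44 on array 8, and the same drop was present before dye normalization, with 7.25 to 7.66 on arrays 1 to 6 and 5.66 and 5.55 on arrays 7 and 8. The limit of 0.8 and the choice of arrays were set after values were seen, so these counts are a description.

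Of 500 kept list members, 7 had their standing probe in this set. Among them were Cd3e, Hcls1 (a leukocyte signaling protein) and C1qb of the immune class, Irx1 (a transcription factor of alpha cells), Atp4b (a subunit of the gastric proton pump) and Cox6b2 (a testis form of a cytochrome oxidase subunit). Irx1 had 8.15 to 8.57 on arrays 1 to 4 and 6, 8.67 on array 5, and 6.95 and 7.21 on arrays 7 and 8. Csn3 (kappa casein, a milk protein) had 10.93 to 11.41 on arrays 1 to 4 and 6, and 9.59, 7.54 and 8.87 on arrays 5, 7 and 8. Insulin, glucagon and enzyme genes did not share the drop, and Ins2 had 17.25 and 17.09 on arrays 7 and 8. What part this played in the level of Cd3e was not tested.

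Disagreement between probes was not limited to leukocyte genes. Over the 4549 genes with at least 2 kept probes, the highest and the lowest kept probe differed by a median of 1.97 log2 units (quartiles 0.91 and 3.30), where the median SD over arrays was 0.21, and 7.41% differed by more than 5. Of the 25 highest genes, 8 had a second probe, and in 3 of these the probes lay more than 5 units apart. Pigt, of the enzyme that attaches GPI anchors, had 18.71 ± 0.19 at chr2:164199333-164199392 and 8.87 ± 0.64 at chr2:164198491-164198550. Ptprz1, a receptor phosphatase of the nervous system, had 18.04 ± 0.36 at chr6:22951570-22951629 and 4.35, 4.07 and 3.24 on 3 other probes. Grn (progranulin) had 17.78 ± 0.19 and 11.82 ± 0.17. Lars2, a mitochondrial tRNA synthetase at rank 2 with 18.95 ± 0.09, had 1 probe, so no such comparison could be made.

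**Figure D4:**
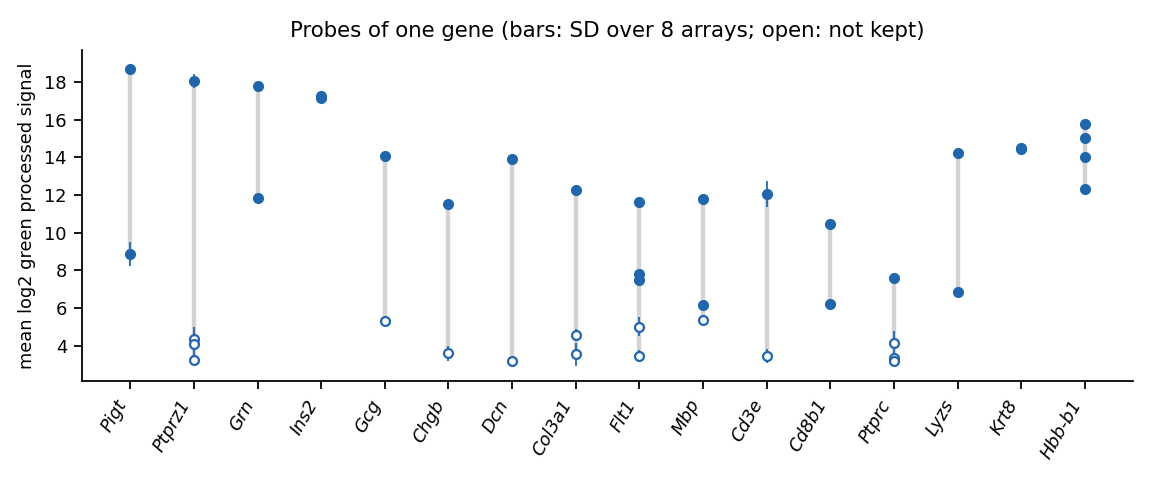
Mean log2 green processed signal (y axis) of every probe of 16 genes (x axis), with SD over the 8 arrays as error bars and open symbols for probes not well above background on all 8. The 2 probes of Ins2 and of Krt8 coincide, while those of Pigt, Ptprz1, Gcg, Dcn, Cd3e and Lyzs lie far apart.

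When dim probes that were not kept were counted too, 1572 of the 7151 kept genes with at least 2 probes (22.0%) had probes more than 5 units apart. By class this was so for 12 of 28 stromal genes with at least 2 probes, 6 of 17 endocrine, 4 of 27 immune, 3 of 11 exocrine and 0 of 12 ductal genes. Dcn had 13.89 on 1 probe and 3.20 on the other, Col3a1 12.29 against 4.59 and 3.53, and Chgb 11.52 against 3.60. For Dcn, Col3a1 and Chgb the files place the bright and the dim probes kilobases apart. No mm8 annotation was used here, so exon, intron or UTR cannot be given for them.

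Reference genes gave a further scale. Ubb (ubiquitin) had 16.13 ± 0.16, Eef1a1 (a translation factor) 15.53 ± 0.15 and Hprt, listed as Hprt1, 12.09 ± 0.19. Gapdh, a glycolytic enzyme present in all cells, was well above background on 0 arrays at 3.54 ± 0.44 on its only probe, at chr6:125127708-125127767. Actb (beta actin) had 9.75 ± 0.17 on a probe placed at chrX:147774990-147775049 and 8.99 ± 0.26 on a probe at chr5:143168706-143168765. Genes of the respiratory chain and ATP synthase had 81 of 83 kept at a median percentile of 95.8, and ribosomal proteins 80 of 81 at 99.2. The 14 cell cycle genes had 10 kept at 53.4. Of all symbols, 64.6% were kept.

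Genes of other tissues were checked as signs of neighbouring tissue or blood. Of 78 on the array, 48 were kept (61.5%, where 64.6% of all symbols were), with a median percentile of 27.7 ± 1.83. Globin genes were the highest, Hbb-b1 at 15.76 ± 0.17 and Hba-a1 at 14.28 ± 0.23. Of 25 liver genes, 20 were kept. Alb1 (albumin) had a lowest level of 10.85, a median of 11.25 and a highest of 11.60, for a mean of 11.22 ± 0.24 at rank 2398. Ambp (a plasma protein precursor) had 12.11 ± 0.13, while Apoa1, Apoa2 and Apob had 6.58, 7.00 and 6.77.

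Stomach, intestine and muscle genes were lower. Of 9 stomach genes 5 were kept (55.6%), of 11 intestinal genes 5 (45.5%) and of 12 skeletal muscle genes 4 (33.3%), where 64.6% of all symbols were. Their median percentiles were 20.1, 18.2 and 16.3. The pepsinogen gene Pgc, the gastrokine genes Gkn1 and Gkn2, the intestinal factors Cdx1 and Cdx2 and the muscle gene Mb (myoglobin) were above background on 0 arrays. Muc5ac, a gastric mucin, was the highest at 10.57 ± 0.62. Of 12 genes of distant tissues, 8 were kept, with the airway gene Scgb1a1 at 11.07 ± 0.31 and the sperm gene Tnp1 at 10.01 ± 0.50.

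The genes that the study named in mice were measured in the pool as follows. Angptl4, an inhibitor of lipoprotein lipase, had 9.62 ± 0.19, Pdk4, a kinase that holds back glucose oxidation, 7.52 ± 0.11, and Fcgr2b, the inhibitory Fc receptor, 7.19 ± 0.10. Rgs16, a regulator of G-protein signaling, had 5.69 ± 0.16 at the 1.53 percentile. Clec4d, a lectin of myeloid cells, was above background on 3 arrays, and Cadm2, a synaptic adhesion gene listed as Igsf4d, on 0. Of the MHC genes, singled out after values were seen since the pool differs from NOD in this locus, H2-K1 (class I) had 14.15 ± 0.19 and the class II genes H2-Ab1, H2-Eb1 and H2-Aa had 10.84 ± 0.42, 9.34 ± 0.34 and 7.16 ± 0.16 on their brightest probes. Cd74, the invariant chain of class II, had 10.83 ± 0.26. H2-Ea, which the b haplotype does not transcribe, was above on 1 array. These levels are of the pool and do not say which MHC genes differ between it and NOD.

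Since all arrays carried the same pool, the slides were compared with limma over the 21536 kept probes. At an adjusted p under 0.01 and at least 2-fold, 23 probes (0.107%) were higher on slide 2 and 0 (0.0%) were lower, and 124 were at least 2-fold apart with an unadjusted p under 0.05. The count and its direction rested on single arrays and on the scaling, with 106 probes without array 6, of which 79 were lower on slide 2, 11 without array 5 and 4 after quantile normalization. At an adjusted p under 0.05 with no minimum fold, 52 (0.241%) differed. The slides and anything that differed between them, such as scan, day or labeling, cannot be told apart, and the 4 arrays of a slide are not separate samples.

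Dbp stood out from all others. It encodes a PAR bZIP transcription factor whose transcript cycles with the day, and its probe lies at chr7:45577937-45577996. Its level was 10.44, 10.65, 10.65 and 10.69 on slide 1 and 12.35, 12.65, 12.25 and 12.42 on slide 2. Every array of slide 2 was above every array of slide 1. Of all kept probes, 2.44% did not overlap between slides in one direction or the other. The difference was 1.81 on the log2 scale (limma, Benjamini-Hochberg adjusted p = 3.59e-06), the smallest adjusted p of the table. The exact permutation test gave p = 0.0286 (two-sided, n = 4 and 4), the smallest it allows. Every probe without overlap between slides reaches that p, and Dbp was named for its slide difference, so the permutation test adds no support. Before dye normalization the difference was 1.83.

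No probe of another clock gene passed. The 16 kept probes of 10 other clock genes differed between slides by -0.17 to 0.62, with a smallest limma adjusted p of 0.305. The largest was 0.62, for 1 of 3 probes of Nr1d1 (Rev-erb alpha), the only one of the 16 whose slides did not overlap, and a Per2 probe had 0.37. Per1 had -0.09, Arntl (Bmal1) -0.10 and Tef, a PAR bZIP gene like Dbp, 0.07 and -0.05 on its probes. After Dbp, the probes that passed had differences of 1.01 to 1.40, among them Ccdc54, Plac8l1, Vps18, Olfr1366 and 1 probe of Hnf4a, a factor of acinar and liver cells. That Hnf4a probe had 9.98 on slide 1 and 10.99 on slide 2. The other kept Hnf4a probe did not pass.

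Some differences as large as that of Dbp did not pass, and 1 or a few arrays stood apart in them. Nsmce2, of a DNA repair complex, had 15.12 on array 5 and 7.53 to 8.32 on the others, a slide difference of 1.92. Olfr1226, an olfactory receptor gene, had 17.31 on array 1 and 8.61 to 9.45 on the others, with a difference of -1.99. Olfr1131 and Csn3 had -1.79 and -1.77 and were of the set that was low on arrays 7 and 8. Olfr5 had a difference of 1.42 with an adjusted p of 0.0129.

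**Figure D5:**
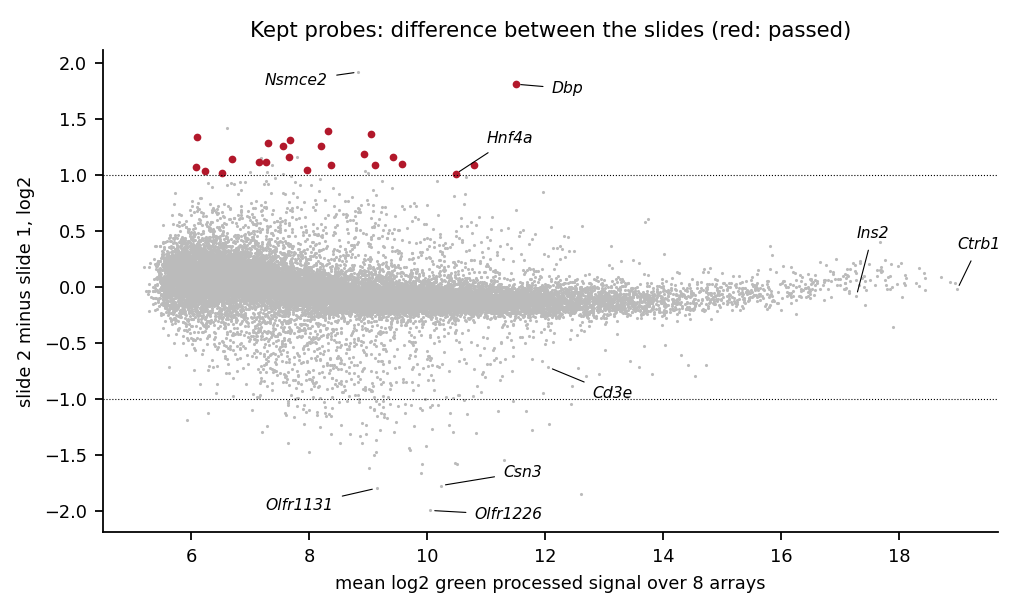
Difference between slide 2 and slide 1 in log2 units (y axis) against mean log2 green processed signal (x axis) for 21536 kept probes, with dotted lines at 2-fold and the 23 probes that passed in red. Dbp lies at 1.81 apart from the other probes that passed, and the probes of Ctrb1 and Ins2 lie near 0.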

How the data were processed

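Total RNA from pancreata was labeled and hybridized to two-color 60-mer arrays, which the authors read with Agilent Feature Extraction (version 10.7.3.1 per the file headers). The deposited values are spot intensities, which the authors' software had background-subtracted, detrended and dye-normalized against the red channel, with a stand-in value where a spot was not above background (18.2% to 23.4% of spots per array). The red channel and the deposited log ratios were not used.

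Green intensities were taken as log2 with no pseudocount and averaged over the spots of a probe (245 probes were spotted 10 times). Leaving out the 657 spots marked as irregular was one of the alternatives, beside other signals, filters, normalizations and each array left out in turn. The brightest kept probe stood for each gene. Of 437 entries on 33 fixed lists, 418 matched by symbol, 9 through RefSeq and 10 were not on the array, and 2 more lists were made by symbol pattern. Members and lists were chosen with earlier results of these data known. Named genes were the 25 highest, the 3 highest members of each list, up to 3 members without a kept probe, members that define a cell type, genes the study named in mice, and the 3 genes furthest up and furthest down between slides. The clock, sensory receptor and MHC genes, and the set low on arrays 7 and 8, were chosen after their values were seen.

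Slides were compared with limma 3.58.1 (R 4.3.3) and Benjamini-Hochberg adjustment, and with the exact permutation test for single genes. The limma step was tested on simulated data, where 192 of 200 probes changed 4-fold were recovered among 21536. Python 3.11.15, pandas 2.3.3, numpy 2.4.6 and scipy 1.17.1 were used. The number of arrays limits the precision. Some members that the naming rule covers are not reported here.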

Additional observations from a re-analysis of the deposited data

Results flagged for a closer look

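Among the 148 named genes, 8 had 1 array far from the other 7 by Dixon's criterion, which chance meets in about 1 of 20 groups. The count is near that share, so it is not a result about these genes. The genes Nsmce2 and Olfr1226 were named for their slide differences, which 1 far array can produce, so their flag follows in part from the choice. Nsmce2 had 15.12 on array 5 with a median of 7.99, and Olfr1226 had 17.31 on array 1 with a median of 9.05. Array 8 gave the lowest value of Ptprz1 (17.24, median 18.11) and of Mzb1, a plasma cell gene listed as 2010001M09Rik (8.66, median 9.23). Array 6 gave the highest value of Atp2a1, a muscle calcium pump gene (7.27, median 6.86), of Pecam1 (7.13, median 6.83) and of Pdk4 (7.77, median 7.49). Rpl41, a ribosomal protein gene, was lowest on array 4 at 17.60, with a median of 18.05.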

How the results depend on the processing

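No paired analysis was possible because all 8 arrays held the same pool and the profile has 1 group. Exocrine genes had the highest median percentile under every alternative run: 99.7 with background-subtracted signal, 99.8 with the mean over kept probes, 99.7 with detection on at least 4 arrays and 99.8 with no detection filter. In the same order of alternatives the endocrine median was 50.3, 56.4, 50.5 and 60.9, and the stromal median 54.5, 59.9, 56.1 and 64.0. The ductal median, 47.9 as reported, was 38.0 with the mean over probes, 52.5 with at least 4 arrays and 60.6 with no filter. Other-tissue genes had 31.8 with the mean over probes and 44.1 with no filter, and immune genes 48.2 with no filter. Leaving out 1 array moved the endocrine median between 51.6 and 54.1, and leaving out arrays 7 and 8, an alternative chosen after seeing the data, gave 51.5. The median range between probes of a gene was 2.11 with background-subtracted signal, 2.06 with at least 4 arrays and 2.53 with no filter.

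The 23 probes that differed by slide became 4 with quantile normalization, 9 with at least 4 arrays, 52 at an adjusted p under 0.05 with no minimum fold and 63 without arrays 7 and 8. A plain two-sample statistic called 0, with 39 at least 2-fold apart at an unadjusted p under 0.05, and Dbp then had an adjusted p of 0.0419. Leaving out 1 array gave 11 (without array 5) to 106 (without array 6, of which 79 were lower on slide 2), with the Dbp difference at 1.73 to 1.87. The cause of these changes was not tested.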
